A study of Gallus gallus with 6 samples.

Results

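The genes described are the matrix metalloproteases (MMP), the disintegrin metalloproteases (ADAM), the ADAMTS proteases with their ADAMTS-like relatives, and the tissue inhibitors of metalloproteases (TIMP). The set was chosen with earlier results of these data known. It holds every listed gene whose symbol begins with MMP, TIMP or ADAM and a number or with ADAMTS. This gave 49 of the 15491 listed genes, made up of 13 MMPs, 3 TIMPs, 12 ADAMs, 16 ADAMTS genes and 5 ADAMTS-like genes. All 49 passed the filter on low counts. Messenger RNA was sequenced from abdominal fat in 3 libraries for each of 2 groups of male chickens of the Ross strain, which is bred for meat. From day 21 until day 35 the thermoneutral group was held at 22 °C, and the heat stress group at 32 °C. Both groups shared the strain, the sex, the diet, individual cages, 50% humidity and light for 24 h a day. The labels do not say that each library is a separate chicken, so the p-values measure the spread between libraries, which may be partly technical.

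Metalloproteases are zinc-dependent enzymes that are made as inactive precursors. MMPs cut collagens, basement membrane and other matrix proteins, ADAMs release the outer domains of membrane proteins, and ADAMTS proteases trim procollagens, proteoglycans and other secreted proteins. TIMPs bind the active enzymes and block them, and ADAMTS-like proteins carry the matrix-binding domains of ADAMTS proteases without the protease. In fat of mammals the matrix around adipocytes is remodelled by these enzymes as the cells enlarge or shrink. RNA levels give neither the amount nor the activity of the enzymes.

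The 6 libraries held 30673333 to 45163458 counts in all, and every heat stress library was deeper than every thermoneutral one. Changes are given in CPM, counts divided by a library's TMM-scaled total and multiplied by 1e+06, where 1 CPM corresponded to 29.98 to 46.01 counts. Levels of different genes are compared only in TPM, the authors' values per length of transcript. The 7 adipocyte markers were all listed. Their sum ran from 13162 to 18511 CPM in thermoneutral and from 18988 to 21526 CPM in heat stress libraries. Only 1 of the 7, LPL, was higher at an unadjusted p under 0.05, with means of 2852 ± 1304 and 6434 ± 1411 CPM. The log2 fold change was above 0 for 5 of the 7, beside 49.4% of all genes, and below 0 for 2. FABP4 was below 0, with means of 7565 ± 445 CPM in thermoneutral and 6238 ± 791 CPM in heat stress libraries. The summed CPM of 10 fibroblast and preadipocyte markers ran from 47111 to 58749.6 in thermoneutral and from 34126 to 41716 in heat stress libraries. COL3A1 made up most of it, at 31966 to 38982 CPM in thermoneutral and 22909 to 27655 CPM in heat stress libraries. At an unadjusted p under 0.05, 7 of the 10 were lower and 1, PDGFRB, was higher. All genes tested gave 9.20% lower and 9.56% higher. The sums of erythrocyte markers (365 to 829 against 197 to 345 CPM, 3 of 6 listed) and skeletal muscle markers (33.7 to 60.3 against 12.9 to 24.8 CPM, 2 of 5 listed) were also lower in all heat stress libraries. Smooth muscle sums overlapped, with 4 of 8 markers lower and 1 higher at an unadjusted p under 0.05. In bulk tissue, fewer cells of a type and less RNA per cell cannot be told apart. The part of these shifts in the results that follow was not tested.

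The most abundant messages of the 49 were an inhibitor and a gelatinase. TIMP2, an inhibitor that in mammals also takes part in activating MMP2, stood at 1229 ± 65.7 TPM in thermoneutral and 1396 ± 69.8 TPM in heat stress libraries (SD, n = 3 each), rank 92 of all listed genes by mean TPM. MMP2, the gelatinase that cuts denatured collagen and basement membrane collagen, followed at rank 240, with 563, 618 and 563 TPM in thermoneutral libraries and 469.6, 533 and 357 TPM in heat stress libraries. The TPM level of TIMP2 was above that of MMP2 in each of the 6 libraries. TIMP3, an inhibitor that stays bound to the matrix, ranked 567 by mean TPM, and MMP15, a protease anchored in the cell membrane, ranked 707. A mean of at least 10 TPM was reached by 21 of the 49 genes, and 6 genes were under 1 TPM.

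**Figure D1:**
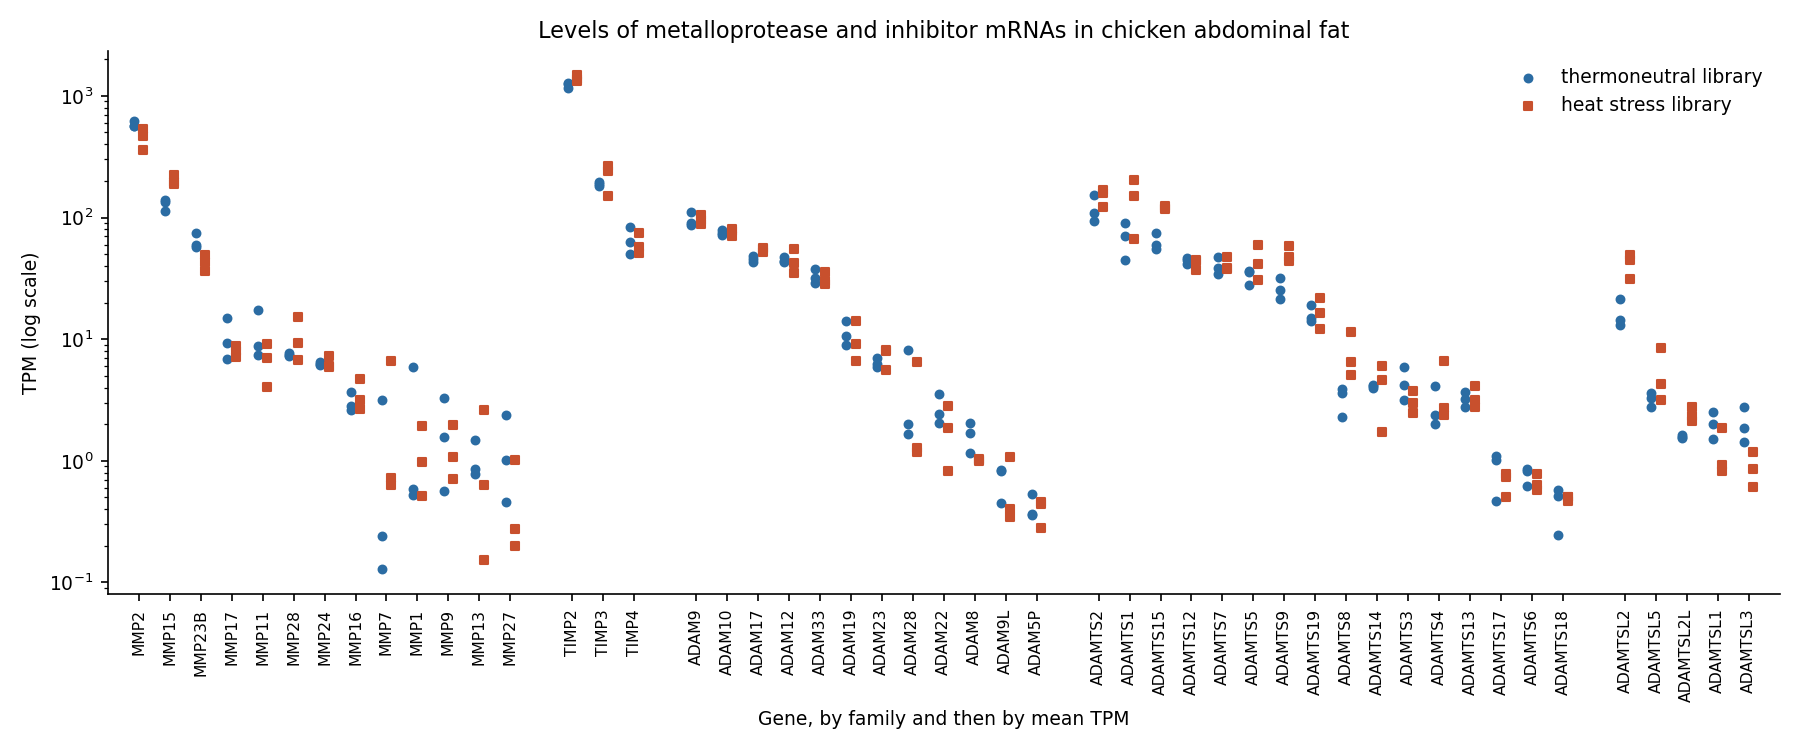
Levels of the 49 genes in TPM on a log axis, grouped by family and ordered by mean TPM within each, with 1 circle per thermoneutral library and 1 square per heat stress library. TIMP2 and MMP2 lie above all other genes, while MMP7, MMP1, MMP9, MMP13 and MMP27 lie low and scatter widely within at least 1 group.

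Heat stress was compared with thermoneutral gene by gene. The genes with the lowest p-values were ADAMTS15, ADAMTSL2, MMP15, ADAMTS9 and ADAMTS8 on the higher side and MMP23B, ADAMTSL3 and MMP2 on the lower side. With edgeR's quasi-likelihood test and Benjamini-Hochberg adjustment over all 14743 genes tested, 0 of the 49 passed an FDR of 0.05, and across all genes the test passed 26, or 0.176%, with 0.115% higher and 0.0610% lower. At an unadjusted p under 0.05 there were 11 of 49 (22.4%), against 18.8% of all genes tested. Of these, 5 were higher (10.2%, against 9.56% of all genes) and 6 were lower (12.2%, against 9.20%). The shares of the 49 at that p are near the background in both directions. DESeq2, a second count model, passed 8 of the 49 at an adjusted p of 0.05 (16.3%), against 9.37% of all genes. Of these 8, 5 were higher, where the share over all genes was 5.19%, and 3 were lower, where it was 4.18%. The libraries of the groups did not overlap in CPM for 10 of the 49 (20.4%), 6 higher and 4 lower, against 25.0% of all genes, 12.6% higher and 12.4% lower. The log2 fold change was above 0 for 20 genes (40.8%, against 49.4% of all genes), and its median over the 49 was -0.09, beside 0.0 over all genes tested. A log2 fold change of at least 1 in either direction was found for 6 genes (12.2%, against 6.73%).

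The count of 6 lower genes varied with the library left out. It was 3 without thermoneutral 2, where all genes gave 7.62% lower, and 3 without heat stress 3, where all genes gave 5.87%. Without any other single library it was 5 to 8, where all genes gave 7.2% to 9.28%. With library totals in place of TMM there were 5 higher and 4 lower genes, where all genes gave 11% and 7.85%. In limma on log2(TPM + 1), which changes the test and the unit as well as the scaling, there were 7 higher and 4 lower, where all genes gave 15.7% and 4.89%. The median log2 fold change of all genes was 0.096 higher in that fit. The 8 genes that DESeq2 passed were at an unadjusted p under 0.05 in edgeR in all 6 fits that left out 1 library. They were picked on the same counts, so this is not an independent check, and no share over all genes is given. In its own 6 such fits DESeq2 passed MMP2 in 1, ADAMTS8 in 4 and ADAMTSL3 in 5. It passed MMP15, ADAMTS9, ADAMTSL2, MMP23B and ADAMTS15 in all 6.

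**Figure D2:**
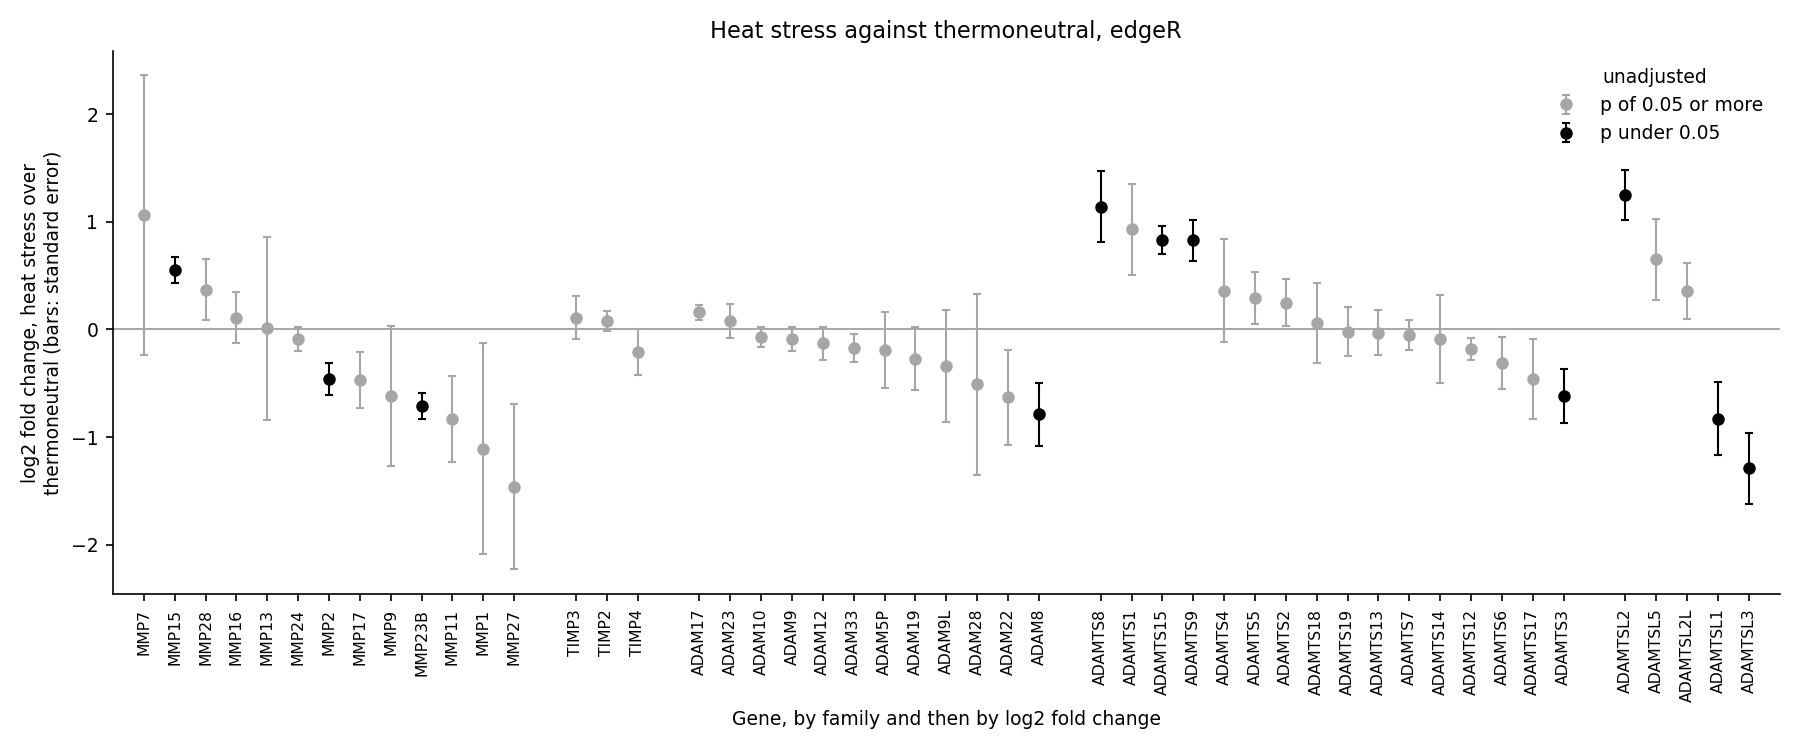
Log2 fold change of heat stress over thermoneutral with its standard error for the 49 genes, grouped by family, from edgeR on 3 libraries per group. Black points mark the 11 genes at an unadjusted p under 0.05, which lie from -1.29 for ADAMTSL3 to 1.25 for ADAMTSL2.

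Of the 13 MMPs, 5 had a log2 fold change above 0 and 8 below (49.4% of all genes were above 0), with a median of -0.46. At an unadjusted p under 0.05, 1 was higher and 2 were lower, beside 9.56% and 9.20% of all genes. MMP2 measured 905, 969 and 881 CPM in thermoneutral libraries and 697, 771 and 536 CPM in heat stress libraries. All 3 heat stress libraries were below all 3 thermoneutral ones, and heat stress 3 was the lowest. The mean was 918 ± 45.5 CPM against 668 ± 120.3 CPM, a log2 fold change of -0.46 ± 0.15 (SE) with an edgeR FDR of 0.172 and a DESeq2 adjusted p of 0.0358. DESeq2 passed MMP2 in only 1 of the 6 fits that left out 1 library.

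MMP15 had the opposite direction. Its CPM was 215, 172 and 202 in thermoneutral libraries and 317, 259.6 and 284 in heat stress libraries. The groups did not overlap. The mean was 196 ± 22.3 CPM against 287 ± 28.9 CPM, a log2 fold change of 0.55 ± 0.12 with an edgeR FDR of 0.086 and a DESeq2 adjusted p of 0.00177.

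MMP23B belongs to a small membrane-anchored branch that lacks the hemopexin domain of most MMPs. It measured 130.5, 150 and 129 CPM in thermoneutral libraries and 83.7, 93.8 and 72.9 CPM in heat stress libraries. Every heat stress library was lower. The mean was 136 ± 11.7 CPM against 83.4 ± 10.4 CPM, a log2 fold change of -0.71 ± 0.12 with an edgeR FDR of 0.0573 and a DESeq2 adjusted p of 1.82e-05. The reference table, which is of a later build, gives the same gene ID the symbol MMP23A and places it so that it overlaps MIB2.

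These 3 genes made up 93.6% to 95.7% of the summed MMP TPM in every library, and their shares of it differed between the groups. The share of MMP2 was 70.9%, 71.7% and 69.9% in thermoneutral libraries and 60.5%, 65.5% and 56.6% in heat stress libraries. MMP15 supplied 17.6%, 13.3% and 16.7% in thermoneutral libraries and 28.7%, 23.0% and 31.3% in heat stress libraries. In neither share did the groups overlap.

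Among the less abundant MMPs no gene reached an unadjusted p of 0.05. MMP11, a stromelysin, measured 9.97, 19.3 and 8.3 CPM in thermoneutral libraries and 4.28, 9.37 and 7.5 CPM in heat stress libraries, and the groups overlapped. MMP17, which is attached to the membrane by a lipid anchor, measured 22.4, 29.5 and 47.6 CPM in thermoneutral libraries and 24.1, 26.1 and 21.7 CPM in heat stress libraries, with thermoneutral 3 far above the others. MMP28, also called epilysin, was near 10 CPM in all libraries but heat stress 1, where it was 19.3 CPM. The membrane-type genes MMP24 and MMP16 had log2 fold changes of -0.09 ± 0.11 and 0.11 ± 0.24, the first of which was 0.01 in limma on log2(TPM + 1).

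The secreted MMPs best known from inflamed or healing tissue were scarce. The gelatinase MMP9, which neutrophils store in mammals, measured 0.734, 4.08 and 1.99 CPM in thermoneutral libraries and 0.851, 1.24 and 2.36 CPM in heat stress libraries. The collagenase MMP13 measured 1.07, 1.94 and 1.14 CPM in thermoneutral libraries and 0.207, 3.15 and 0.786 CPM in heat stress libraries. In both genes the range within each group exceeded the distance between the group means. The collagenase MMP1 measured 0.467, 0.541 and 5.12 CPM in thermoneutral and 1.59, 0.804 and 0.446 CPM in heat stress libraries. MMP7, known as matrilysin, measured 0.133, 1.43 and 0.0569 CPM in thermoneutral and 0.276, 0.304 and 2.83 CPM in heat stress libraries. For MMP1, thermoneutral 3 stood far above the other libraries. For MMP7, thermoneutral 2 and heat stress 3 each stood far above the others of their group. The log2 fold change of MMP7 was 1.06 with all libraries, 3.55 without thermoneutral 2 and -0.88 without heat stress 3. MMP27 measured 0.4, 1.94 and 0.824 CPM in thermoneutral and 0.161, 0.761 and 0.21 CPM in heat stress libraries. Its groups overlapped too. At these depths 3 counts correspond to 0.0652 to 0.1 CPM, and the lowest value of MMP7 was below that. In the reference order of genes MMP1, MMP27 and MMP7 are neighbours. They were highest in different libraries.

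None of the 3 listed inhibitors reached an unadjusted p of 0.05. TIMP2 measured 537, 472 and 509.5 CPM in thermoneutral libraries and 535, 554 and 521 CPM in heat stress libraries. The groups overlapped, and the log2 fold change was 0.08 ± 0.09 with a 95% interval from -0.14 to 0.3. TIMP3, which in mammals also blocks ADAM17 and the aggrecan-cutting ADAMTS proteases, measured 85.8, 88.3 and 81.9 CPM in thermoneutral and 63.6, 100 and 114 CPM in heat stress libraries. The heat stress libraries lay on both sides of the thermoneutral ones, and the log2 fold change was 0.11 ± 0.2. TIMP4, the inhibitor that in mammals is most restricted to heart and fat, measured 111, 137 and 179.6 CPM in thermoneutral and 152, 101 and 118 CPM in heat stress libraries. It had a log2 fold change of -0.21 ± 0.21, and the groups overlapped. TIMP2 supplied 80.5% to 86.1% of the summed TIMP TPM in every library.

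The relation of proteases to inhibitors was described as a log2 ratio of TPM within each library, which does not depend on the scaling between libraries. Summed MMPs over summed TIMPs gave -0.94, -0.72 and -0.91 in thermoneutral libraries and -1.05, -1.12 and -1.39 in heat stress libraries. Each heat stress library was lower than each thermoneutral one, with means of -0.85 ± 0.12 and -1.19 ± 0.18. The difference of -0.33 ran from -0.4 to -0.23 when 1 library at a time was left out. MMP2 over summed TIMPs averaged -1.35 ± 0.14 in thermoneutral and -1.91 ± 0.27 in heat stress libraries, and MMP23B over summed TIMPs averaged -4.55 ± 0.26 and -5.3 ± 0.18. The ratio of MMP15 went the other way from those of MMP2 and MMP23B, from -3.52 ± 0.1 to -3.05 ± 0.19. For all 4 ratios the groups did not overlap. The ratios share the same denominator, and MMP2 supplied most of the summed MMP TPM, so they are not separate results. MMP2, MMP15 and MMP23B did not overlap in CPM either, as was the case for 25.0% of all genes tested. The sums lack MMP14 and TIMP1, which are not listed. The summed MMP level itself did overlap, with 794, 862 and 805 TPM in thermoneutral and 777, 814 and 630.3 TPM in heat stress libraries. Summed TIMPs measured 1519, 1416 and 1515 TPM in thermoneutral and 1609, 1765 and 1656 TPM in heat stress libraries, and the groups did not overlap. In CPM the order was the reverse. Summed TIMPs overlapped there, at 734, 697 and 771 CPM in thermoneutral and 751, 755 and 752 CPM in heat stress libraries. Summed MMPs did not, at 1325, 1389.9 and 1316 CPM in thermoneutral and 1179, 1207 and 962 CPM in heat stress libraries. No test was run on the ratios.

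**Figure D3:**
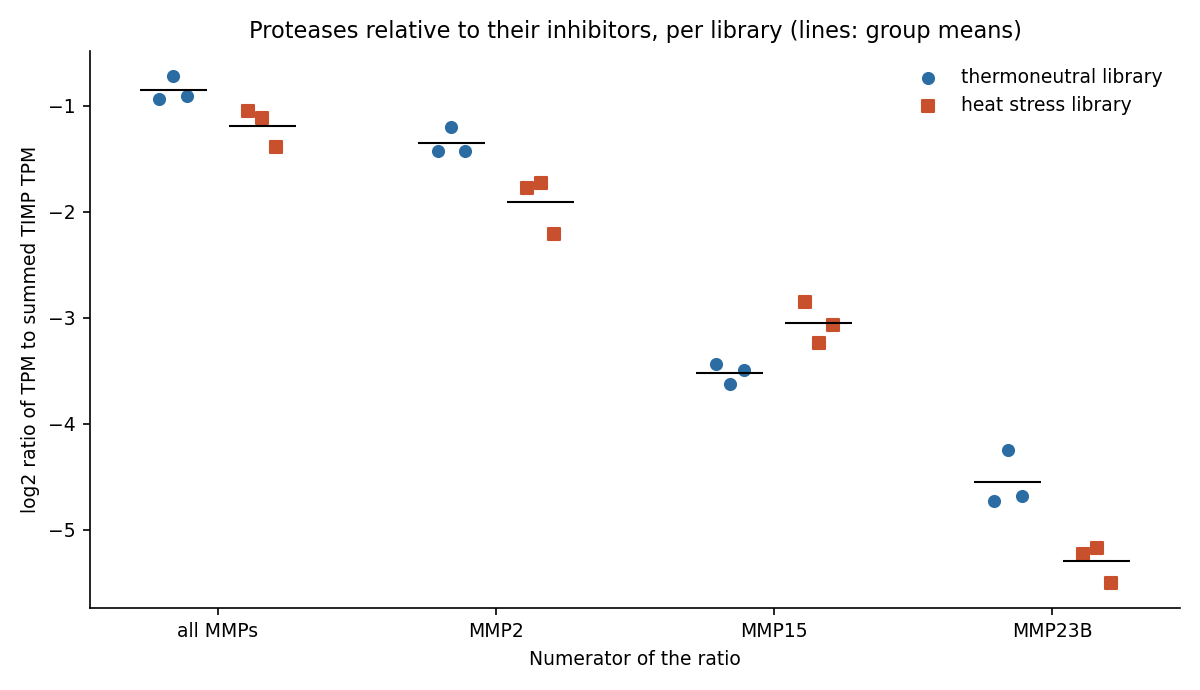
Log2 ratio of TPM of all MMPs, MMP2, MMP15 or MMP23B to the summed TIMPs, with 1 point per library and a line at each group mean. Heat stress libraries lie below thermoneutral ones for all MMPs, MMP2 and MMP23B and above them for MMP15.

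The ADAMTS proteases are described by their known substrates. Those that cut proteoglycans such as aggrecan and versican had log2 fold changes above 0 in 6 of 6 genes (49.4% of all genes did), from 0.29 to 1.14 with a median of 0.83, and 3 of the 6 were higher at an unadjusted p under 0.05, beside 9.56% of all genes. The 3 procollagen proteases had a median of -0.09, and ADAMTS7 and ADAMTS12, which cut the cartilage protein COMP in mammals, had log2 fold changes of -0.05 ± 0.14 and -0.18 ± 0.1, of which the first was 0.05 in limma on log2(TPM + 1). Of the 5 other ADAMTS genes, 1 had a log2 fold change above 0 and 4 below, with a median of -0.03. Over all 16 ADAMTS genes, 8 were above 0 and 8 below, with a median of 0.02. The classes were chosen with earlier results of these data known, so the counts per class are description only. Summed over the 6 proteoglycan-cutting genes, the level was 224, 185 and 183 TPM in thermoneutral and 302, 364 and 431 TPM in heat stress libraries, and the groups did not overlap. The log2 ratio of this sum to TIMP3 TPM averaged 0.06 ± 0.18 in thermoneutral and 0.77 ± 0.22 in heat stress libraries. Its groups did not overlap either, and it was not tested.

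ADAMTS15 had the smallest p-value of the 49 genes. It measured 156, 141 and 192 CPM in thermoneutral libraries and 286, 276 and 306 CPM in heat stress libraries. The 3 heat stress libraries lay close together and far above the highest thermoneutral one. The mean was 163 ± 26.1 CPM against 289 ± 14.9 CPM, 1.78-fold higher, with a log2 fold change of 0.83 ± 0.13, an edgeR FDR of 0.0544 and a DESeq2 adjusted p of 1.18e-06. ADAMTS15 passed the FDR when genes under 1 CPM in any library were left out, with library totals in place of TMM, and in limma on log2(TPM + 1).

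ADAMTS9 measured 161, 117 and 103 CPM in thermoneutral libraries and 202, 210.5 and 267 CPM in heat stress libraries. The groups did not overlap. The log2 fold change was 0.83 ± 0.19, the edgeR FDR 0.0891 and the DESeq2 adjusted p 0.00183. ADAMTS8, which in the reference order of genes lies next to ADAMTS15, measured 11.2, 18.8 and 17.3 CPM in thermoneutral libraries and 52, 28.6 and 23.4 CPM in heat stress libraries. Heat stress 1 stood well above the other heat stress libraries. The log2 fold change was 1.14 ± 0.33 with an edgeR FDR of 0.14 and a DESeq2 adjusted p of 0.0116, and it was 0.72 without heat stress 1.

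ADAMTS1, an inhibitor of vessel growth in mammals as well as a protease of versican, was the only gene with a mean of at least 10 TPM that varied over 3-fold within a group. It measured 227, 174 and 111 CPM in thermoneutral libraries and 155, 339 and 485 CPM in heat stress libraries. Heat stress 1 lay within the thermoneutral range, and the log2 fold change of 0.93 ± 0.42 had an unadjusted p of 0.0639. ADAMTS5, its neighbour in the reference order, measured 172, 127 and 162 CPM in thermoneutral and 256, 176 and 133 CPM in heat stress libraries. Its highest value was in heat stress 1, where ADAMTS1 was lowest of the heat stress libraries. The log2 fold change of ADAMTS5 was 0.29 ± 0.24, and it was 0.01 at the lowest when 1 library was left out. ADAMTS4 had a log2 fold change of 0.36 ± 0.48, which was -0.27 at the lowest when 1 library was left out.

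Endothelial markers gave sums of 2202 to 2836 CPM in thermoneutral and 2619.8 to 3149 CPM in heat stress libraries. These sums overlapped, 9 of 10 markers were listed and 5 of them were higher at an unadjusted p under 0.05, beside 9.56% of all genes. The part of endothelium in the levels of the proteoglycan-cutting ADAMTS genes was not tested.

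The procollagen proteases remove the amino-terminal propeptide of fibrillar collagens. ADAMTS2, the most abundant ADAMTS message by TPM, measured 668, 467 and 398 CPM in thermoneutral and 492, 669 and 656 CPM in heat stress libraries. The groups overlapped, with a log2 fold change of 0.25 ± 0.22. ADAMTS3, which in mammals also activates the lymphatic growth factor VEGFC, measured 10.3, 18.7 and 13.2 CPM in thermoneutral and 8.95, 10.9 and 7.5 CPM in heat stress libraries. The highest heat stress library was above the lowest thermoneutral one. Its log2 fold change was -0.62 ± 0.25 with an unadjusted p of 0.0415, and it kept a p under 0.05 in 2 of the 6 fits that left out 1 library. The third gene of the class, ADAMTS14, had a log2 fold change of -0.09 ± 0.41.

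Among the 11 genes at an unadjusted p under 0.05, the highest and the lowest log2 fold change were those of ADAMTS-like genes. ADAMTSL2, which in mammals binds fibrillins and a latent TGF-beta binding protein, measured 36.8, 59.4 and 40.2 CPM in thermoneutral libraries and 129, 114 and 82.9 CPM in heat stress libraries. Every heat stress library was above every thermoneutral one. The mean was 45.5 ± 12.2 CPM against 108 ± 23.3 CPM, 2.38-fold higher, with a log2 fold change of 1.25 ± 0.23, an edgeR FDR of 0.0652 and a DESeq2 adjusted p of 1.68e-05. The liver also makes ADAMTSL2 in mammals, and 3 of 5 liver markers were listed, with sums of 2.16 to 14.6 CPM in thermoneutral and 3.31 to 201 CPM in heat stress libraries. All 3, ALB, TTR and SERPINC1, were higher at an unadjusted p under 0.05, beside 9.56% of all genes. The liver marker ALB measured 2.6, 13.1 and 1.36 CPM in thermoneutral and 1.33, 190.4 and 71.3 CPM in heat stress libraries. TTR measured 0.1, 0.573 and 0.227 CPM in thermoneutral and 1.24, 5.85 and 3.3 CPM in heat stress libraries, and was higher in all 3 of the latter. SERPINC1 had a log2 fold change of 1.58 ± 0.66. ADAMTSL2 was highest in heat stress 1, where all 3 markers were lowest of the heat stress libraries. The part of liver RNA in the level of ADAMTSL2 was not tested.

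ADAMTSL3, a matrix glycoprotein of the punctin group, measured 5.34, 10.1 and 6.74 CPM in thermoneutral libraries and 2.12, 3.93 and 2.96 CPM in heat stress libraries. Every heat stress library was lower, and the log2 fold change was -1.29 ± 0.33 with an edgeR FDR of 0.112 and a DESeq2 adjusted p of 0.00518. ADAMTSL1, of the same group, measured 10.5, 12.8 and 7.68 CPM in thermoneutral and 4.05, 8.8 and 4.59 CPM in heat stress libraries. Heat stress 2 lay within the thermoneutral range, and the log2 fold change was -0.83 ± 0.34 with an unadjusted p of 0.0467. ADAMTSL1 kept a p under 0.05 in 2 of the 6 fits that left out 1 library.

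**Figure D4:**
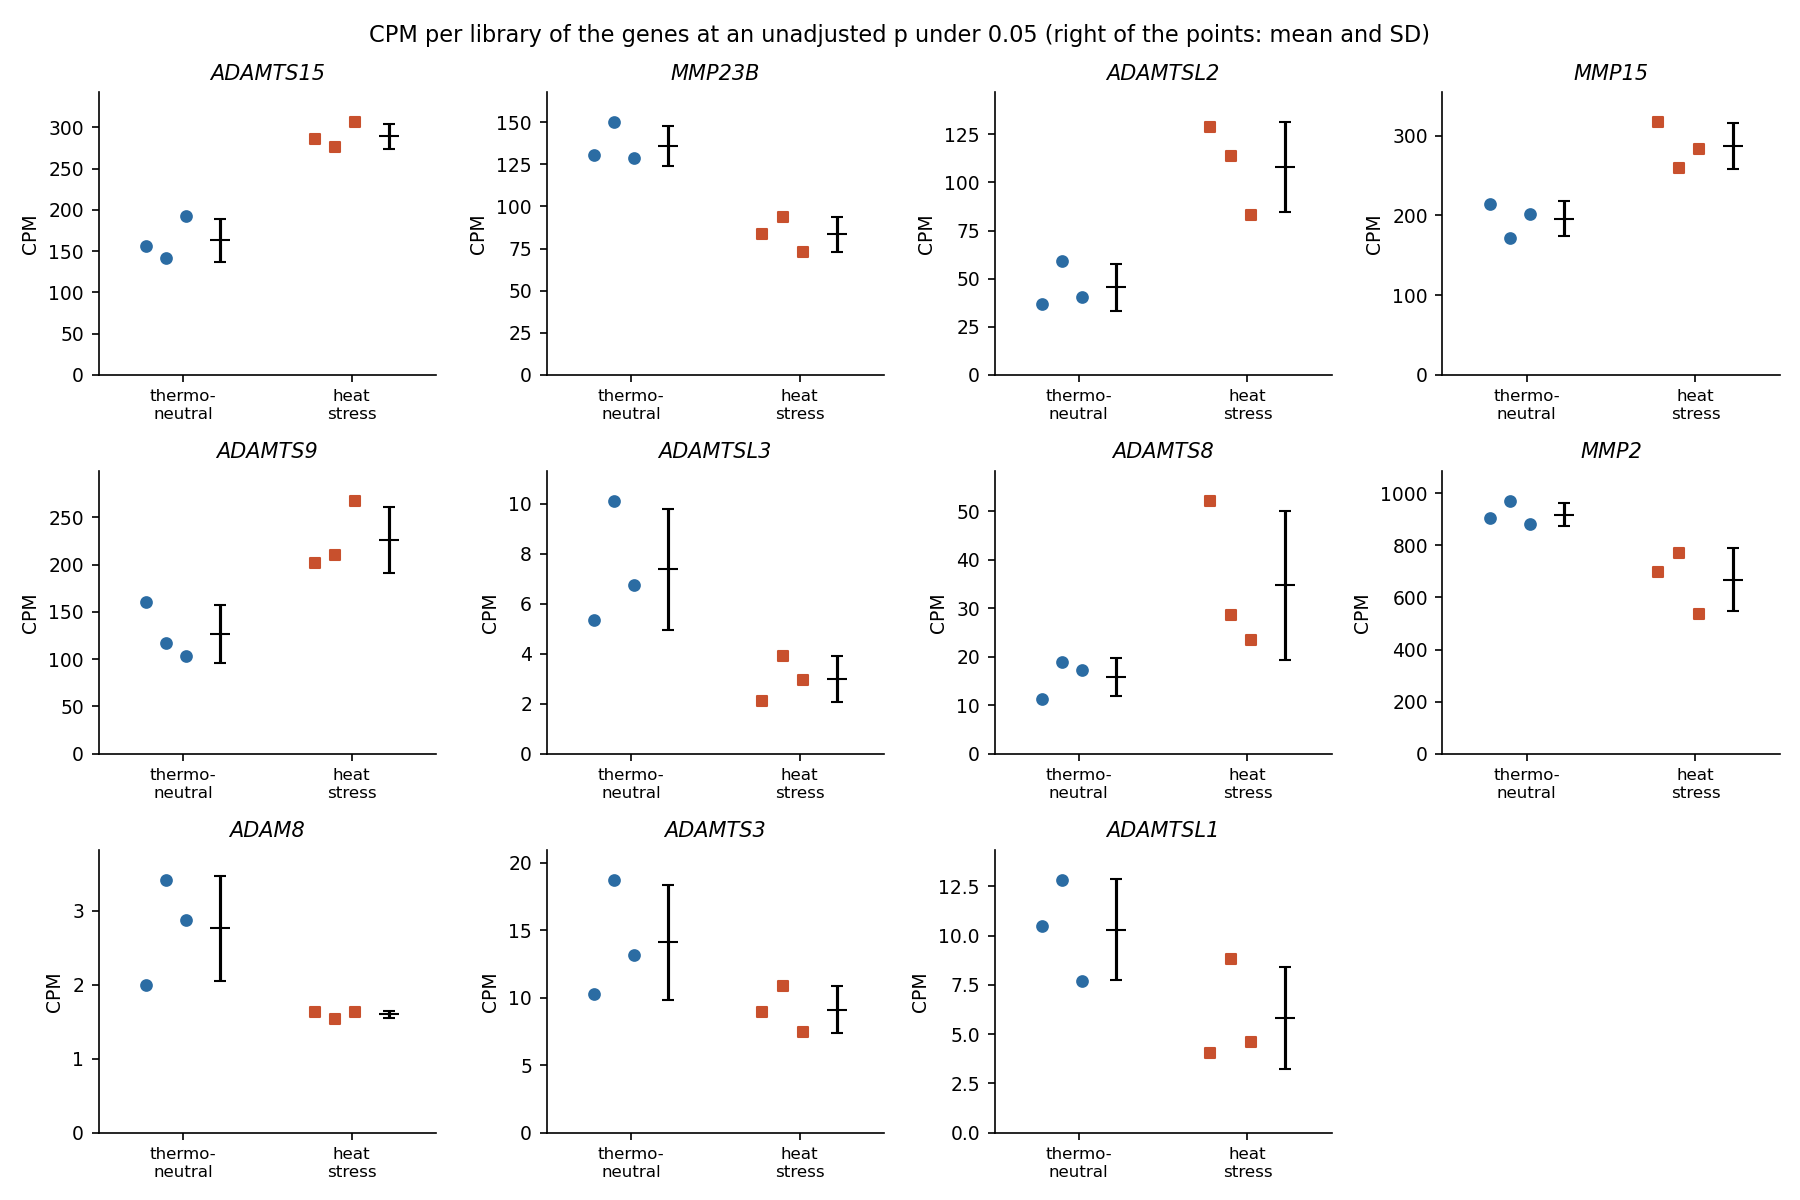
CPM in each of the 3 thermoneutral and 3 heat stress libraries for the 11 genes at an unadjusted p under 0.05 in edgeR, with the group mean and SD beside the points. The groups are apart in all panels but those of ADAMTS3 and ADAMTSL1.

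The ADAM sheddases had small log2 fold changes where they were abundant. Of the 12 ADAM genes, 2 had a log2 fold change above 0 and 10 below, with a median of -0.18, although ADAM10 and ADAM9 turned to 0.03 and 0.01 in limma on log2(TPM + 1). Of all genes tested, 49.4% had a log2 fold change above 0. The 12 include ADAM22 and ADAM23, classed as lacking the zinc motif of the protease, and ADAM5P, described as a pseudogene. Of the 8 classed as sheddases, 1 was above 0 and 7 were below. Among the 12, 1 was lower at an unadjusted p under 0.05, beside 9.20% of all genes. ADAM10, the main protease that releases the outer domain of Notch receptors, had a log2 fold change of -0.07 ± 0.09 with a 95% interval from -0.28 to 0.14. ADAM17, which releases TNF and ligands of the EGF receptor, measured 95, 99.6 and 104 CPM in thermoneutral and 107, 113 and 114 CPM in heat stress libraries. Its groups did not overlap, yet the log2 fold change was only 0.16 ± 0.07, with a 95% interval from -0.02 to 0.33. ADAM9, ADAM12 and ADAM33, the other abundant ADAM genes by TPM, had log2 fold changes of -0.09 ± 0.11, -0.13 ± 0.15 and -0.17 ± 0.13. For these abundant sheddases the standard errors were small, at or under 0.15 on the log2 scale.

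ADAM8, a protease of white blood cells, was scarce and measured 2, 3.41 and 2.87 CPM in thermoneutral and 1.63, 1.54 and 1.63 CPM in heat stress libraries. The groups did not overlap. The log2 fold change was -0.79 ± 0.29 with an unadjusted p of 0.0288 and a DESeq2 adjusted p of 0.0983, and ADAM8 kept a p under 0.05 in edgeR in 1 of the 6 fits that left out 1 library. Summed T cell markers (7 of 7 listed) were lower in heat stress libraries, at 95.1 to 111 CPM against 154 to 163 CPM in thermoneutral ones. The sums of macrophage markers (9 of 10 listed) overlapped, at 1199 to 1633 CPM in thermoneutral and 898 to 1322 CPM in heat stress libraries. So did those of heterophil markers (7 of 8 listed), at 166 to 307 CPM and 126 to 203 CPM. Of the 9 macrophage markers, 8 had a log2 fold change below 0, and 2 were lower at an unadjusted p under 0.05. Of 6 heterophil markers tested, 5 were below 0 and 0 reached that p. All genes gave 9.20% lower at that p. The part of white blood cells in the level of ADAM8 was not tested. ADAM28 measured 4.6, 17.9 and 3.67 CPM in thermoneutral and 2.48, 13.1 and 2.7 CPM in heat stress libraries. It was high in 1 library of each group. The reference table gives this gene ID the symbol ADAMDEC1, so the name is uncertain.

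Variation between libraries of a group differed widely across the 49 genes. The highest library was over 3-fold above the lowest within at least 1 group for 10 genes, 8 of which had a mean under 4 TPM. Another 29 genes varied under 2-fold in both groups. The highest of the 6 values fell in thermoneutral 2 for 15 genes, and the lowest fell in heat stress 3 for 16 genes. The same counts over all genes are not given. Whether these libraries stand out for the 49 in particular was not tested.

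A list of 40 further genes held regulators of these proteases and, in 7 cases, metalloproteases of the astacin and pappalysin families. Of its 28 regulators listed and tested, 7 were higher (25.0%, against 9.56% of all genes) and 1 was lower (3.57%, against 9.20%) at an unadjusted p under 0.05. Of the 5 other metalloproteases tested, 1 was higher and 2 were lower at that p. In edgeR 0 of these 33 genes passed the FDR, and DESeq2 passed 4 regulators and 1 other metalloprotease, all higher, beside 5.19% of all genes passed as higher. The list was divided in this way after its values were seen. Undivided, the 33 genes gave 8 higher (24.2%) and 3 lower (9.09%) at an unadjusted p under 0.05, beside 9.56% and 9.20% of all genes. RHBDF1, a partner that ADAM17 needs for its maturation in mammals, measured 45.2, 44.4 and 43.6 CPM in thermoneutral and 65.7, 60.3 and 57.7 CPM in heat stress libraries. The groups were well apart, with a log2 fold change of 0.46 ± 0.08 and an edgeR FDR of 0.059. Its relative RHBDF2 had a log2 fold change of 0.32 ± 0.12, and TSPAN15, a tetraspanin that escorts ADAM10, one of 0.67 ± 0.26. ANXA2 and S100A10, which together bind plasminogen and its activator at the cell surface, had log2 fold changes of 0.56 ± 0.14 and 0.6 ± 0.19. LRP1, the receptor that clears many proteases and their inhibitors, averaged 1118 ± 129 CPM in thermoneutral and 1659 ± 173 CPM in heat stress libraries. In the authors' TPM values LRP1 is listed at only 0.217 to 0.393, while their FPKM values for it run from 67.6 to 122, and these deposited values contradict each other. In CPM, all 3 heat stress libraries were above the thermoneutral ones for each of these 6 genes.

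Among inhibitors outside the TIMP family, TFPI2, which blocks plasmin, averaged 317 ± 15.6 CPM in thermoneutral and 441 ± 70.9 CPM in heat stress libraries, with a log2 fold change of 0.48 ± 0.13. A2ML1, a protease trap of the alpha-2-macroglobulin type, had a log2 fold change of -0.49 ± 0.16. RECK, a membrane-bound inhibitor of MMPs, had one of -0.01 ± 0.08. The log2 fold changes of these inhibitors lay on both sides of 0. PAPPA, a metalloprotease outside these families that cuts IGF binding proteins, measured 2.03, 2.26 and 2.56 CPM in thermoneutral and 9.68, 7.26 and 6.16 CPM in heat stress libraries. The groups were far apart, with a log2 fold change of 1.75 ± 0.24, an edgeR FDR of 0.0518 and a DESeq2 adjusted p of 1.72e-08. Its relative PAPPA2 had a log2 fold change of -2.01 ± 0.81 at under 4 CPM in all libraries, and TLL1, a procollagen C-proteinase, one of -0.31 ± 0.13.

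A list of 41 genes held 39 substrates and the procollagen enhancers PCOLCE and PCOLCE2. Of its 33 substrates listed and tested, 3 were higher (9.09%, against 9.56% of all genes) and 5 were lower (15.2%, against 9.20%) at an unadjusted p under 0.05, counted without the enhancers after their values were seen. With the enhancers, 3 of 35 were higher (8.57%) and 6 were lower (17.1%) at that p. In edgeR 0 of these passed the FDR. DESeq2 passed 2 higher and 4 lower, beside 5.19% and 4.18% of all genes. The lower ones were matrix genes. COMP averaged 679.8 ± 123 CPM in thermoneutral and 367 ± 51.6 CPM in heat stress libraries, with a log2 fold change of -0.89 ± 0.17, and the small proteoglycan LUM averaged 536 ± 31.1 and 328 ± 33.4 CPM, with one of -0.71 ± 0.11. The fibrillar collagens COL1A2 and COL3A1 had log2 fold changes of -0.53 ± 0.15 and -0.46 ± 0.19, and the proteoglycan DCN one of -0.37 ± 0.15. PCOLCE, which enhances the cutting of procollagen, had one of -0.38 ± 0.14 at an unadjusted p of 0.0334. LUM, DCN, COL1A2 and COL3A1 are also in the fibroblast marker list given above. Of the proteoglycans that ADAMTS proteases cut, aggrecan (ACAN) measured 0.867, 0.86 and 0.91 CPM in thermoneutral and 2.81, 1.59 and 3.12 CPM in heat stress libraries. It was higher in every heat stress library with a log2 fold change of 1.51 ± 0.34, but its level was low. Sums of cartilage markers (3 of 4 listed) overlapped, at 4.4 to 5.4 CPM in thermoneutral and 4.03 to 12.8 CPM in heat stress libraries. Of these, 1 was higher at an unadjusted p under 0.05, beside 9.56% of all genes. It was COL2A1, at 0.5, 0.0955 and 0.341 CPM in thermoneutral and 0.184, 7.09 and 2.96 CPM in heat stress libraries. The part of cartilage RNA in the level of ACAN was not tested. Versican (VCAN) had a log2 fold change of -0.22 ± 0.24. Among proteins that ADAMs release, the receptor NOTCH1 measured 129.9, 121 and 126 CPM in thermoneutral and 221, 171 and 205 CPM in heat stress libraries, with a log2 fold change of 0.67 ± 0.11. Its ligand JAG1 had one of 0.36 ± 0.12.

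The authors' deposited table of all genes put 8 of the 49 at an adjusted p under 0.05 (16.3%, against 9.18% of all genes). These were the same 8 that DESeq2 passed here. Both rest on the same 6 libraries, so the calls are not independent of each other. The authors' deposited shorter list held 742 genes, beside 15491 listed in all. By its name it was cut at a fold change of at least 2 and a raw p, here taken as under 0.05. It held 3 of the 49, which were ADAMTSL2 and ADAMTS8 on the higher side and ADAMTSL3 on the lower side. In the authors' deposited table of ontology terms, metalloendopeptidase activity had 5 genes of 87, 3 higher and 2 lower, with an adjusted p of 0.348, and ADAMTS8 was the only one of them among the 49. Extracellular matrix organization had 12 genes of 181 with an adjusted p of 0.126 in the authors' deposited table, and ADAMTSL2 was the only one of them among the 49.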

How the data were processed

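Poly(A) RNA of abdominal fat was made into stranded libraries, per the labels' protocols, and titles gave each library its group and number. The submitters' processing notes name StringTie 2.1.3b, Bowtie2 2.3.4.1, HISAT2 2.1.0 and the build GRCg6a. What each tool did is not given in the sources used here. Nor is the strand setting of the counting, so genes that overlap others carry reads of uncertain origin. In the reference gene table (GRCg7b, another build, used only for symbols, order and overlap; 48 of 49 gene IDs matched) 27 of these 48 overlap another gene and 14 overlap a listed one. The 27 include MMP2, MMP23B, TIMP2, TIMP3, TIMP4, ADAMTSL2, ADAMTS9, ADAMTS1, ADAMTS2, ADAMTS3, ADAMTSL1 and ADAM10.

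The authors deposited read counts per gene, per the file headers, together with FPKM and TPM values scaled for length and depth. Their tables also hold a signed fold-change score and raw and adjusted p-values, per the file headers, and gene ontology terms. The lowest deposited count is 1, so a gene without counts in even 1 library is not listed. A gene seen in only 1 group could therefore not appear. The sums of MMPs and TIMPs hold listed genes only, and MMP14 and TIMP1 are not among them. The tables hold 36 further value columns that were not used.

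All 14743 genes passing filterByExpr were tested in edgeR 4.0.16 (R 4.3.3) on the deposited counts, with TMM, the quasi-likelihood F test and group as the only term. The SE is the absolute log2 fold change over the square root of F. DESeq2 1.42.0 and limma 3.58.1, on log2(TPM + 1) with a pseudocount of 1, were alternatives, and the code was tested on simulated data. Libraries of a group all differed beyond sampling noise, with a chi-square of 36.1 to 103 per degree of freedom. Total counts of 30673333 to 45163458 set the precision of low values.

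The genes, lists and tests were chosen with earlier results of these data known. Named with values were all MMPs and TIMPs, genes passed by edgeR or DESeq2, other genes of the set at an unadjusted p under 0.05, and the most abundant ADAM and ADAMTS genes. ADAM28, ADAMTS4, ADAMTS7, ADAMTS12, ADAMTS14, RECK and VCAN were added after their values were seen. No coordinates are printed.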

Additional observations from a re-analysis of the deposited data

How the results depend on the processing

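The count of genes past the FDR was 0 of 49 in the main fit. With a minimum of 1 CPM in all libraries it was 2 of 41 tested (MMP23B and ADAMTS15), beside 133 of 12163 genes. With library totals only it was 1 (ADAMTS15), beside 99 of all 14743 genes. In limma on log2(TPM + 1) it was 2 (MMP15 and ADAMTS15), beside 202 of all genes. In DESeq2 it was 8, beside 1352 of all genes. The count was 0 with no filter and with DESeq2's size factors in edgeR, where all genes gave 23 and 26. It was 0 too with the number in the titles as a replicate block. In each fit without 1 library it was 0 (0 to 0), where all genes gave 3 to 35. The counts at an unadjusted p under 0.05 without 1 library ran from 5 to 7 higher and from 3 to 8 lower. All genes gave 7.42% to 9.65% higher and 5.87% to 9.28% lower in these fits. The count of 8 in DESeq2, beside 9.37% of all genes with all 6 libraries, ran from 6 to 9 without 1 library. The difference in the log2 ratio of MMPs to TIMPs ran from -0.4 to -0.23 without 1 library. These fits and the one on FPKM (-0.33) were chosen after seeing the data. Deviations of same-numbered libraries had correlations of 0.078, 0.252 and 0.036. Those of libraries with different numbers ran from -0.188 to 0.109. These numbers are those of the titles, and the library names carry other numbers. Whether either set pairs the samples was not tested. With the replicate block 95 of all 14743 genes tested passed the FDR, beside 26 without it. Of the 49, 5 genes were higher and 8 lower with the block at an unadjusted p under 0.05, where all genes gave 9.27% and 8.51%.

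Of 629 single-gene values under alternatives, 584 kept direction and side of the FDR, 13 came to pass it and 32 turned direction, over 18 genes. In limma on log2(TPM + 1) the log2 difference turned to 0.03 for ADAM10, -0.09 for MMP13, 0.05 for ADAMTS7, 0.04 for ADAMTS19, 0.05 for ADAMTS13, 0.01 for MMP24 and 0.01 for ADAM9. ADAMTS19 was at 0.01 with library totals and MMP13 at -0.58 with the replicate block. Without 1 library, log2 fold changes that turned ran from -1.11 to 0.11 for MMP9, -1.48 to 0.52 for MMP13, -0.16 to 0.27 for MMP16, -0.06 to 0.33 for TIMP3, -0.17 to 0.07 for ADAMTS7, -0.26 to 0.18 for ADAMTS19, -0.19 to 0.08 for ADAMTS13, -0.02 to 0.59 for MMP28, -1.7 to 0.91 for MMP1, -0.88 to 3.55 for MMP7, -1.75 to 0.56 for ADAM28, -0.48 to 0.27 for ADAMTS14, -0.31 to 0.0 for ADAM12, -0.15 to 0.01 for ADAM9, -0.23 to 0.3 for ADAMTS18 and -0.27 to 0.75 for ADAMTS4. The cause was not tested. Depth limits MMP7 most, at 0.0569 CPM in thermoneutral 3.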
